A study of Homo sapiens with 4 samples.

Results

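The genes described here build and drive the mitotic apparatus: 53 genes of the kinetochore, the spindle, the spindle checkpoint and the exit from mitosis, chosen by gene symbol from the platform's probe annotation. All 53 had a probe set that named no other gene, each was represented by its brightest probe set, and 51 reached the brightness minimum and were tested, of 12958 genes tested in all. Total RNA of MCF10A, a human mammary epithelial cell line that does not form tumours, had been hybridised to 4 Affymetrix U133 Plus 2.0 arrays. Of these, 2 control arrays came from cells with a control short hairpin RNA (shRNA) and 2 arrays labelled double knockdown (dKD) from cells with shRNA against Cbl and Cbl-b, ubiquitin ligases known for sending activated growth factor receptors to breakdown. All cells were grown in DFCI-1 medium and harvested under normal growth, and the labels name neither clones, the time since transduction nor separate cultures. The p-values therefore reflect spread from array to array, some or all of which may be technical.

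A kinetochore is assembled on the centromere of each sister chromatid. Its inner layer binds the centromeric histone CENPA and its outer layer binds spindle microtubules, while checkpoint kinases and the MAD2 and BUB proteins hold back the anaphase-promoting complex until every kinetochore is attached. Once released, that complex has cyclin B and securin degraded, the sister chromatids separate and the cell exits mitosis. In cycling cells most of these genes are transcribed mainly in G2 and mitosis. Their promoters are bound by the MuvB core at a sequence called the cell cycle genes homology region (CHR), together with repressive DREAM subunits in resting cells and with MYBL2 and FOXM1 in G2, and often by NF-Y at CCAAT boxes.

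The targeted transcripts did not all follow the labels. CBL read 125.9 and 84.4 on the control arrays and 31.1 and 29.0 on the others, a fall of 2.59-fold (adjusted p = 0.00137 by limma), while CBLB rose from 64.3 and 70.0 to 94.8 and 99.5, or 1.36-fold (adjusted p = 0.0147), a call lost without either double knockdown array (adjusted p = 0.0866 and 0.133). Further probe sets of CBL fell by less: 1.26-fold on the next brightest (42.6 and 36.3 against 31.8 and 24.7) and 1.15-fold on another. A second probe set of CBLB rose 1.32-fold. Because CBLB did not fall, the second group is called the knockdown-labelled arrays throughout, and each direction below is theirs against the control arrays. The median intensity over all probe sets lay between 14.5 and 14.7 on the 4 arrays, and arrays of one group correlated across genes at r = 0.995 and 0.997, against 0.983 to 0.986 between groups, where genes are not independent replicates. Of 10 basal epithelial markers 6 were tested: KRT5 and KRT14 fell (log2 changes of -0.73 and -1.62), and ITGB4, EGFR, CDH1 and CD44 did not pass the test (-0.37, -0.08, 0.01 and 0.11). Of 8 luminal markers 5 were tested: KRT8 and KRT18 rose (0.65 and 0.53), KRT7, ESR1 and GATA3 did not pass the test (0.16, -0.11 and -0.61), and PGR, FOXA1 and KRT19 lay below the brightness minimum. The tested basal markers summed to 27006 and 26146.5 in the control against 14187 and 13432, and the luminal ones to 9336 and 9457.5 against 11599.7 and 12034. Most of the basal sums came from KRT14 (13558 and 14078 against 4710 and 4266) and KRT5 (8245 and 7866 against 4824 and 4872). Leukocyte markers summed to between 82.0 and 87.7 over the 4 of 10 that were tested, with none called, and PTPRC lay below the brightness minimum. Of 12 endothelial and fibroblast markers 5 were tested, with sums of 339 and 341 in the control against 258 and 260, and DCN, at 128 and 127 against 54.9 and 77.9 (log2 change -0.81, adjusted p = 0.00701), was the single call. Their part in the results on mitotic genes was not tested.

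Mitotic genes were higher on the knockdown-labelled arrays. Of the 51 tested, 21 rose at an adjusted p under 0.05 and none fell, or 41.2%, where 9.38% of all tested genes rose and 6.59% fell. At an unadjusted p under 0.05, 32 members were higher and 1 was lower, against 2076 and 1882 of all 12958 tested genes. The rises were small: they ran from 1.26-fold for CDCA8 to 1.95-fold for CENPE with a median of 1.38-fold, and 8 of the 21 reached 1.5-fold. The median log2 change of the 51 was 0.32, against -0.01 over all genes tested. Of the 51, 46 lay above 0, as did 6215 of the 12958. Both knockdown-labelled arrays read above both control arrays for 42 members and below them for 3, while 28.1% and 29.4% of all tested genes did so. Genes on one array share its RNA, so these counts do not rest on independent observations. A larger share of cells in mitosis and more of each transcript per cell cannot be told apart in RNA from whole cultures.

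**Figure D1:**
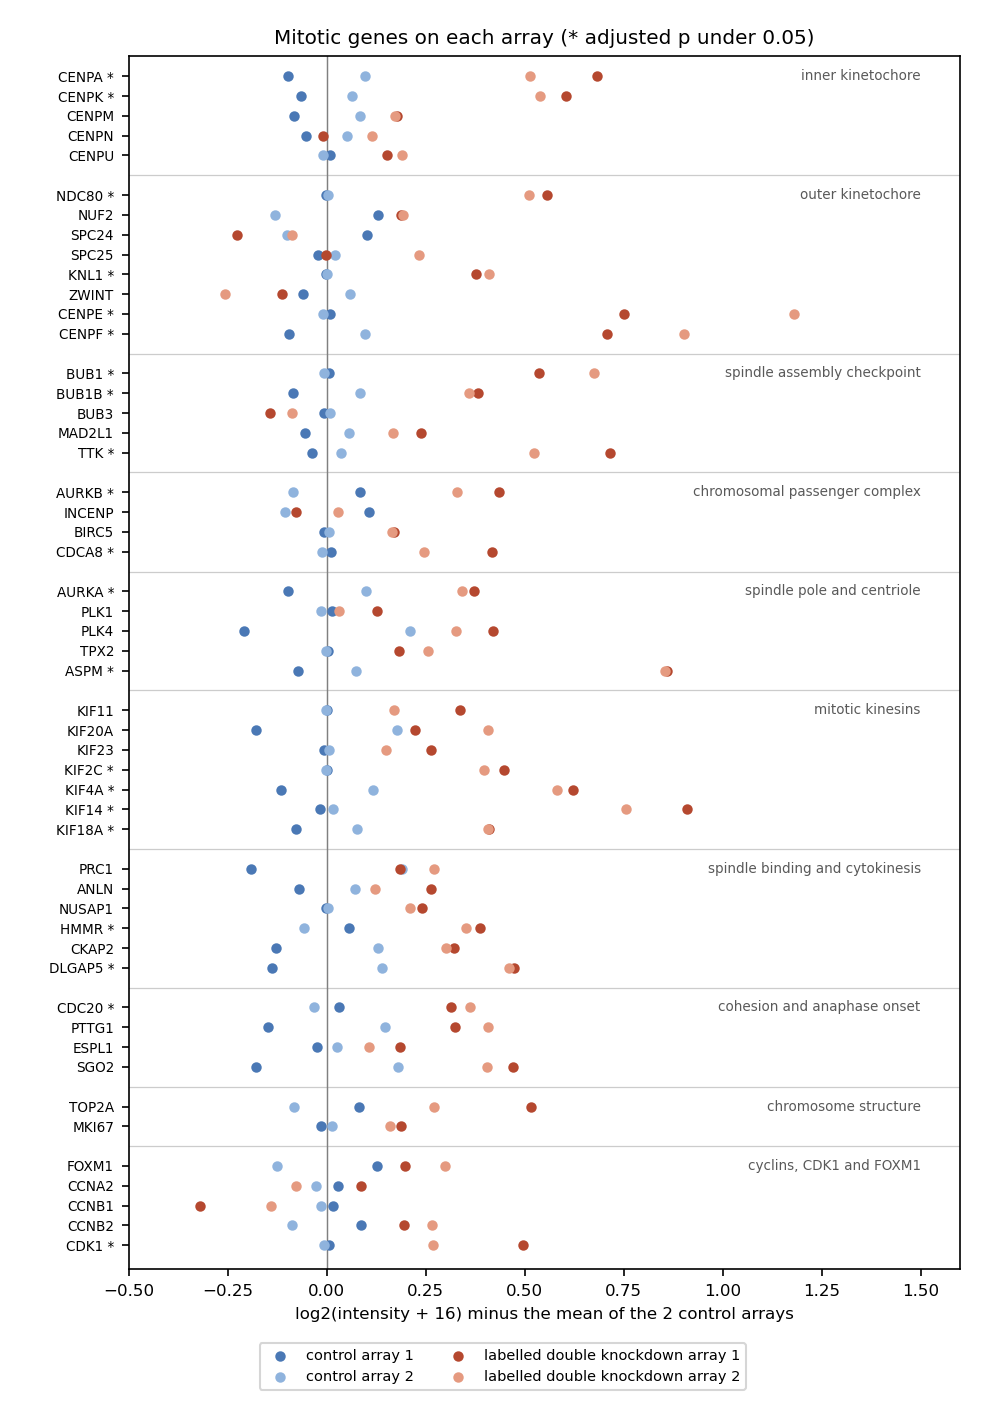
Each of the 51 tested mitotic genes on each array, as log2(intensity + 16) minus the mean of the 2 control arrays, grouped by role; an asterisk marks an adjusted p under 0.05. The points of both knockdown-labelled arrays lie to the right of both control arrays for 42 genes, and CENPE, ASPM, KIF14 and CENPF lie farthest to the right.

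Since so many members moved the same way, their promoters are shown first. Windows from 250 bases before to 50 after a gene's start were taken from RefSeq (GRCh38.p14) and matched by gene identifier for 45 of the 53 members, 6 of which had several windows and counted if any of them matched. AURKA, BIRC5, BUB3, CENPM, FOXM1, KNL1, TPX2 and TTK had no window here. The CHR was searched as TTTGAA and the NF-Y box as CCAAT, each on both strands (as TTCAAA and ATTGG on the other). In the following stretches, which end at the base before the start and run 5′ to 3′ on the strand of the gene, capitals mark these words. ASPM, CENPA, CDCA8, CDC20 and HMMR are members that rose, and PLK1 and CCNB2 have the same words but did not pass the test. CENPE, with the largest rise, and CCNB1, with the lowest change, lack the word searched for as the CHR.
ASPM (chr1:197146670-197146809, minus strand): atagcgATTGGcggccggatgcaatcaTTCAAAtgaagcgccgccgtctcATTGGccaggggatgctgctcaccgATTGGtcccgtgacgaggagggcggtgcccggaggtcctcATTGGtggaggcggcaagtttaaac
CENPA (chr2:26785956-26786055, plus strand): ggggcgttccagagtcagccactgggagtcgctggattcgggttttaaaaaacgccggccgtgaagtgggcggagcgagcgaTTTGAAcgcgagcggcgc
CDCA8 (chr1:37692416-37692515, plus strand): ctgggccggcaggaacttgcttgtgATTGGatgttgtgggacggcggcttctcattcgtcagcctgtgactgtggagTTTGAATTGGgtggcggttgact
CDC20 (chr1:43358881-43358980, plus strand): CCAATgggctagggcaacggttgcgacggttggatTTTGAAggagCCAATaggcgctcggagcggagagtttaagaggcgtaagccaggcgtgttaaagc
HMMR (chr5:163460532-163460631, plus strand): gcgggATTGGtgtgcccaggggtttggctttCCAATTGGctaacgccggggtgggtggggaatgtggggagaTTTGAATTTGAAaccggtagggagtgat
CCNB2 (chr15:59105046-59105145, plus strand): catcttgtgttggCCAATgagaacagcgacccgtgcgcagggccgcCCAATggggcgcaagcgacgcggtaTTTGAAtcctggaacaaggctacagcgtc
PLK1 (chr16:23678789-23678888, plus strand): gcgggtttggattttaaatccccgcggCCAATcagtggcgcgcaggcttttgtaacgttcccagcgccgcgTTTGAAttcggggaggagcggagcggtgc
CENPE (chr4:103198344-103198443, minus strand): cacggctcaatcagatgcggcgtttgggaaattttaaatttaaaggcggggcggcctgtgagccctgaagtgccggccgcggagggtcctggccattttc
CCNB1 (chr5:69167050-69167149, plus strand): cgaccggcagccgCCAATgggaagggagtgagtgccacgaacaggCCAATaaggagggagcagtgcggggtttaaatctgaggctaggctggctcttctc

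In ASPM, whose stretch is 140 bases long and not 100 like the others, the CHR lies on the opposite strand and begins 113 bases before the start, amid 4 NF-Y boxes. The CHR of CENPA begins at 18 bases before the start, that of CDCA8 at 23, and that of CDC20 at 65. HMMR carries the word in tandem, and the CHR of CDCA8 shares its last base with an NF-Y box. In PLK1 and CCNB2 it begins at 29 bases before the start. A match is a description of these letters and not of a bound site, and the lack of one in CENPE and CCNB1 says only that these letters are not in the window. Other forms of the CHR were not searched for, here or in the shares below.

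A CHR was found in 30 of the 45 members with a window (66.7%), against 13.7% of the 10440 tested genes with one and 18.2% of all 27305 genes in the table. An NF-Y box was found in 37 members (82.2%, against 42.5% of tested genes) and both together in 1 window in 25 (55.6%, against 5.58%). The E2F words TTTGGCGC, TTTCCCGC, TTTCGCGC and TTTGCCGC, on both strands, were found in 4 members (8.89%, against 6.3%). DNA replication genes, a list of 50 helicase, polymerase, clamp and nucleotide genes, differed in the CHR and the E2F words. Of 41 with a window, 1 held a CHR (2.44%), 20 an E2F word (48.8%) and 25 an NF-Y box (61.0%). Among members with a window, a CHR was found in 13 of 18 that rose (72.2%) and in 17 of 25 that were tested and not called (68.0%). An NF-Y box was found in 77.8% and 88.0%, at least 2 of them in 55.6% and 44.0%, and an E2F word in 11.1% and 8.0%. The differences between these shares were not tested. Among tested genes other than the members, 12.4% of the 558 with a CHR and an NF-Y box rose and 6.81% fell, against 9.2% and 6.91% of the 9839 without.

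**Figure D2:**
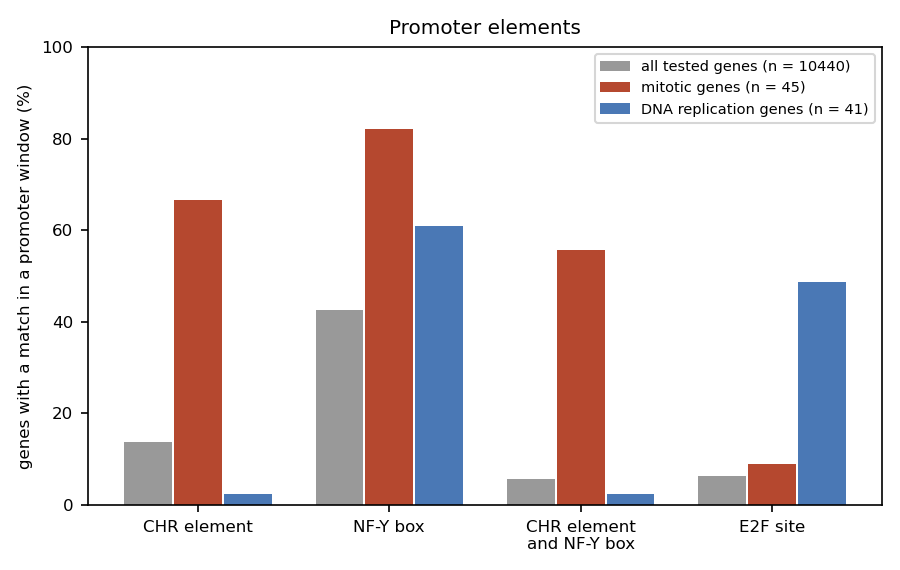
Share of genes, in percent, with at least 1 match to each element in a promoter window of 300 bases, for all tested genes, the mitotic genes and the DNA replication genes; bars start at 0. The CHR element was found in 66.7% of mitotic and 2.44% of DNA replication genes, and the E2F site in 8.89% and 48.8%.

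In all tested genes 9.38% rose and 6.59% fell, the shares to set beside the counts of each role group below. The role groups are small and were not compared by a test. Inner kinetochore genes, which mark the centromere and link it to the outer layer, had 2 of 5 tested members up and none down, at a median log2 change of 0.17. CENPA, the centromeric histone variant that defines where a kinetochore forms, read 77.7 and 91.3 on the control arrays and 145 and 127 on the knockdown-labelled arrays, a rise of 1.51-fold (log2 change 0.60 ± 0.11 SE, adjusted p = 0.00977). CENPK, a subunit of the constitutive centromere network, read 28.4 and 32.5 against 54.5 and 51.4, a rise of 1.49-fold (log2 change 0.57 ± 0.09 SE, adjusted p = 0.00654). In both genes the 2 knockdown-labelled arrays read above the 2 control arrays, as in 28.1% of all tested genes. CENPA is 1 of 7 members that rose on a probe set that may hybridise to more than 1 transcript. Both lost their call without knockdown-labelled array 1, at adjusted p = 0.0843 for CENPA and 0.0622 for CENPK. CENPM, CENPN and CENPU, further subunits of that network, had log2 changes of 0.17, 0.05 and 0.17, with adjusted p of 0.214 to 0.762. CENPI lay below the brightness minimum and was not tested, at 8.84 and 12.8 in the control and 13.9 and 18.7 on the knockdown-labelled arrays.

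Of 8 outer kinetochore genes tested, 4 rose and none fell, at a median log2 change of 0.29, and the changes ran from -0.18 for ZWINT to 0.97 for CENPE, the largest of all members. CENPE, a kinesin that carries chromosomes along microtubules to the spindle equator, read 42.2 and 41.5 on the control arrays and 81.4 and 115 on the others, a rise of 1.95-fold (log2 change 0.97 ± 0.14 SE, adjusted p = 0.00411). The 2 knockdown-labelled arrays differed more for CENPE than the control arrays did, and both lay above the control. CENPF, a large protein of the kinetochore's outermost layer, read 128 and 149 against 236 and 272, a rise of 1.75-fold (log2 change 0.81 ± 0.11 SE, adjusted p = 0.00319). Its second probe set above the minimum was dim, at 15.9 and 14.99 against 18.4 and 23.7, with a log2 change of 0.23. CENPE and CENPF kept their calls whichever array was left out.

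Of the 4 subunits of the NDC80 complex, the main microtubule attachment of the kinetochore, only NDC80 passed the test. NDC80 itself read 49.7 and 50.0 in the control and 80.9 and 77.8 on the knockdown-labelled arrays, a rise of 1.45-fold (log2 change 0.53 ± 0.08 SE, adjusted p = 0.00633). Its direct partner NUF2 read 131 and 106 against 137 and 137, with a log2 change of 0.19 (95% confidence interval -0.05 to 0.44, adjusted p = 0.275). SPC25 and SPC24, the pair that anchors the complex to the inner kinetochore, had log2 changes of 0.12 (interval -0.12 to 0.35) and -0.16 (-0.40 to 0.08), and their groups overlapped. The differences between the subunits were not tested. KNL1, the scaffold that recruits BUB1 and BUB1B, read 61.3 and 61.4 against 84.5 and 86.8, a rise of 1.31-fold (log2 change 0.39 ± 0.08 SE, adjusted p = 0.0184). ZWINT, which binds KNL1, read 183 and 200 against 176 and 157, with a log2 change of -0.18 and adjusted p = 0.241. Without knockdown-labelled array 1 or array 2, NDC80 (adjusted p up to 0.0646) and KNL1 (up to 0.157) lost their calls.

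Among the 5 genes of the spindle assembly checkpoint, 3 rose and none fell, where 9.38% and 6.59% of all tested genes did. The median log2 change of the 5 was 0.37. TTK, the kinase MPS1 that starts checkpoint signalling at unattached kinetochores, read 114 and 120.4 in the control and 202 and 175 on the knockdown-labelled arrays, a rise of 1.54-fold (log2 change 0.62 ± 0.10 SE, adjusted p = 0.0065). BUB1, a kinase that recruits further checkpoint proteins, read 56.6 and 56.0 against 88.9 and 99.4, a rise of 1.52-fold (log2 change 0.61 ± 0.09 SE, adjusted p = 0.00516). BUB1B, which encodes the BUBR1 subunit of the mitotic checkpoint complex, read 125 and 142 against 178 and 175, a rise of 1.29-fold (log2 change 0.37 ± 0.09 SE, adjusted p = 0.0346). In each of these 3 genes both knockdown-labelled arrays read above both control arrays, as in 28.1% of all tested genes. TTK lost its call without knockdown-labelled array 1 (adjusted p = 0.0627), BUB1 without array 2 (0.0631) and BUB1B without either or without control array 1 (up to 0.196). MAD2L1, the checkpoint protein MAD2 that binds CDC20, read 454 and 491 against 560 and 532, with a log2 change of 0.20 and adjusted p = 0.171. BUB3, which joins BUB1 and BUB1B to KNL1, read 1620.1 and 1637 against 1473 and 1531, a log2 change of -0.12 with adjusted p = 0.41. A further probe set of BUB3, at 1615 and 1448 against 1302 and 1216, had a log2 change of -0.28 and an unadjusted p of 0.018 in the fit over all probe sets.

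The chromosomal passenger complex corrects faulty attachments and later marks the site of cleavage, and 2 of its 4 genes rose. AURKB, its kinase, read 59.9 and 51.5 in the control and 80.7 and 73.9 on the knockdown-labelled arrays, a rise of 1.30-fold (log2 change 0.38 ± 0.10 SE, adjusted p = 0.0351). CDCA8, the subunit borealin, read 66.9 and 65.6 against 94.0 and 81.6, a rise of 1.26-fold (log2 change 0.33 ± 0.09 SE, adjusted p = 0.0497). The call of CDCA8 stood just inside the threshold and was lost whichever array was left out (adjusted p up to 0.338), and AURKB was called in 1 of these 4 fits, that without control array 1 (up to 0.232 in the others). BIRC5, survivin, read 244 and 246 against 278 and 276, so its groups stood apart, yet its log2 change of 0.17 had adjusted p = 0.22. INCENP, the scaffold of the complex, read 22.6 and 17.3 against 17.99 and 20.6, and its groups overlapped (log2 change -0.02, adjusted p = 0.912).

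At the spindle poles, ASPM had the smallest adjusted p of all members. This protein, which organises microtubule minus ends, read 296 and 330 in the control and 580 and 578 on the knockdown-labelled arrays, a rise of 1.81-fold (log2 change 0.86 ± 0.09 SE, adjusted p = 0.0011). A second, dim probe set of ASPM read 13.6 and 16.3 against 19.1 and 22.2. The call rested on the bright probe set, since with s_at and x_at probe sets (those that may hybridise to more than 1 transcript) left out the log2 change was 0.24, with adjusted p = 0.127. AURKA, the kinase that matures centrosomes, read 189 and 219 against 268 and 262, a rise of 1.28-fold (log2 change 0.36 ± 0.10 SE, adjusted p = 0.0442), and it lost its call without control array 1 or either knockdown-labelled array (up to 0.226). TPX2, which activates AURKA on the spindle, read 174 and 173 against 199 and 211, with a log2 change of 0.22 and adjusted p = 0.123. PLK4, which starts centriole duplication, read 38.4 and 56.7 against 68.1 and 62.9 (log2 change 0.37, adjusted p = 0.106), and without control array 2 it was called (log2 change 0.58, adjusted p = 0.015). PLK1, a kinase of mitotic entry and exit, read 31.1 and 30.2 against 35.0 and 31.6, a log2 change of 0.08 with an interval of -0.12 to 0.28.

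All 7 mitotic kinesins had higher values on both knockdown-labelled arrays than on both control arrays, as 28.1% of all tested genes did. Of the 7, 4 rose, at a median log2 change of 0.41. KIF14, which acts in cytokinesis, read 73.1 and 75.2 in the control and 153 and 136 on the knockdown-labelled arrays, a rise of 1.78-fold (log2 change 0.83 ± 0.09 SE, adjusted p = 0.00137). Its second probe set read 56.6 and 54.3 against 104 and 98.0, a log2 change of 0.71, and the call of KIF14 held whichever array was left out. KIF4A, a chromosome-bound motor that shortens the central spindle's microtubules, read 53.4 and 65.4 against 99.7 and 96.5, a rise of 1.52-fold (log2 change 0.60 ± 0.10 SE, adjusted p = 0.00838). KIF2C, which takes microtubule ends apart at the centromere, read 103.4 and 103.3 against 147 and 141, a rise of 1.34-fold (log2 change 0.42 ± 0.08 SE, adjusted p = 0.0149). KIF18A, which damps chromosome movements, read 56.8 and 65.0 against 85.9 and 85.7, a rise of 1.33-fold (log2 change 0.41 ± 0.09 SE, adjusted p = 0.0231). These last 3 lost their calls without either knockdown-labelled array (adjusted p up to 0.0641, 0.128 and 0.15), and KIF18A also without control array 1. KIF11, which pushes the poles apart, had a log2 change of 0.25, KIF20A and KIF23, motors of the cleavage zone, had 0.32 and 0.21, with adjusted p of 0.108 to 0.159. Without control array 2, KIF20A was called (log2 change 0.49, adjusted p = 0.0351).

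**Figure D3:**
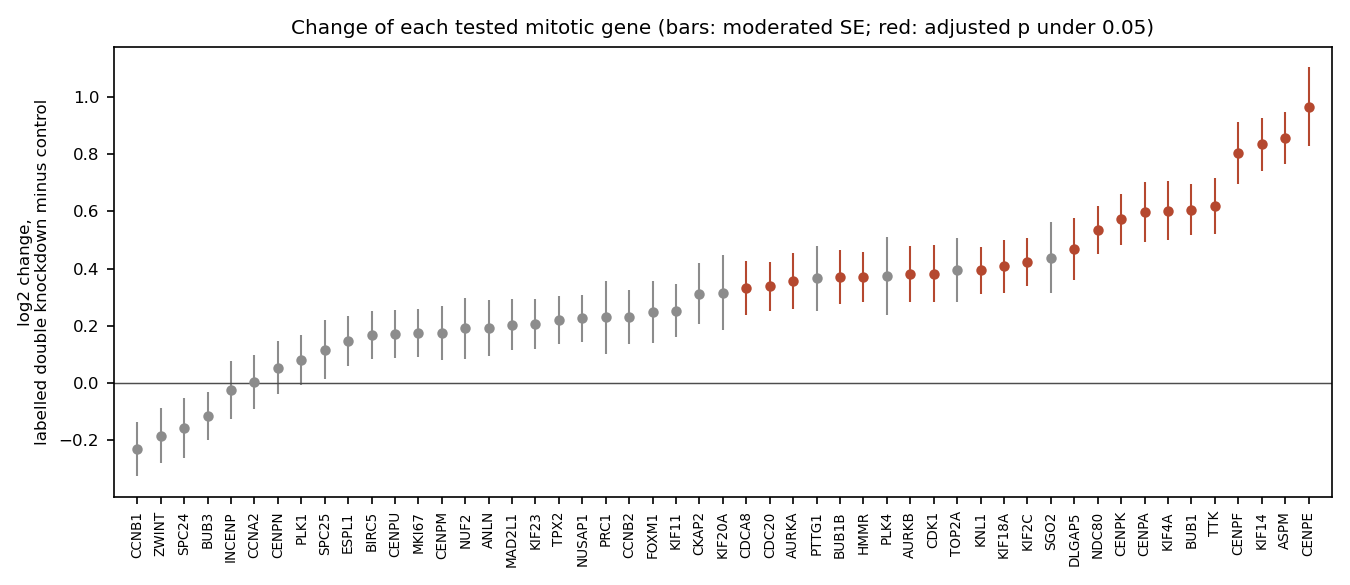
Log2 change of each of the 51 tested mitotic genes in rising order, knockdown-labelled minus control arrays, with the moderated standard error as bars; red points passed the test. Changes run from -0.23 for CCNB1 to 0.97 for CENPE, and the 21 red points all lie above 0.

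Of 6 spindle-binding and cytokinesis genes, 2 rose and none fell. DLGAP5, which stabilises kinetochore fibres, read 89.4 and 112 in the control and 145 and 144 on the knockdown-labelled arrays, a rise of 1.38-fold (log2 change 0.47 ± 0.11 SE, adjusted p = 0.0262). HMMR, a spindle protein that is also known as a hyaluronan receptor, read 361 and 332 against 458 and 446, a rise of 1.29-fold (log2 change 0.37 ± 0.09 SE, adjusted p = 0.0282). The second probe set of HMMR read 143 and 154 against 195 and 217, a log2 change of 0.43. Each gene was called in 1 of the 4 fits that left out an array, with adjusted p up to 0.139 for DLGAP5 and 0.187 for HMMR: DLGAP5 in that without control array 2, HMMR in that without control array 1. CKAP2, NUSAP1, PRC1 and ANLN, which bind spindle microtubules or the cleavage furrow, had log2 changes of 0.31, 0.23, 0.23 and 0.19 and adjusted p of 0.0864 to 0.282. PRC1, which bundles the central spindle, read 275 and 363 against 362 and 385, the only one of the 6 whose groups overlapped. Without control array 2, CKAP2 (log2 change 0.44, adjusted p = 0.0289) and PRC1 (0.42, 0.0367) were called.

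Genes of cohesion and anaphase onset had 1 of 4 tested members up. CDC20, the activator of the anaphase-promoting complex that the checkpoint restrains, read 246 and 234 in the control and 302 and 313 on the knockdown-labelled arrays, a rise of 1.26-fold (log2 change 0.34 ± 0.09 SE, adjusted p = 0.0343). The groups were apart, as in 28.1% of all tested genes in this direction, but the call was lost in each fit without 1 array. SGO2, a protector of centromeric cohesion, read 41.1 and 57.2 against 73.7 and 69.6 and stayed just outside the threshold (log2 change 0.44 ± 0.12 SE, adjusted p = 0.0505). PTTG1, securin, read 2949 and 3621 against 4091 and 4341 (log2 change 0.37 ± 0.11 SE, adjusted p = 0.0674) on a probe set of the same kind as that of CENPA. Without control array 2, SGO2 (log2 change 0.62, adjusted p = 0.012) and PTTG1 (0.51, 0.0211) were called. ESPL1, the protease separase, read 52.2 and 54.6 against 62.9 and 58.8, a log2 change of 0.15 with adjusted p = 0.303. SGO1 lay below the brightness minimum at 9.47 to 9.97 on all arrays and was not tested.

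Neither of 2 common markers of cycling cells passed the test. TOP2A, the topoisomerase that untangles sister chromatids, read 255 and 226 in the control and 351 and 293 on the knockdown-labelled arrays (log2 change 0.39 ± 0.11 SE, adjusted p = 0.0509), and its second bright probe set, at 177 and 134 against 174 and 161, overlapped between groups. MKI67, the coat protein of mitotic chromosomes that pathologists stain as Ki-67, read 40.5 and 41.6 against 49.0 and 47.7 on its brightest probe set (log2 change 0.17, interval -0.02 to 0.37, adjusted p = 0.206). Its 3 other probe sets above the minimum overlapped between groups, with log2 changes of 0.05 to 0.08.

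Among the 5 regulators of mitotic entry and of the transcription of these genes, 1 rose and none fell, and the log2 changes ran from -0.23 to 0.38. CDK1, the kinase of mitotic entry, read 402 and 398 in the control and 570.1 and 485 on the knockdown-labelled arrays, a rise of 1.30-fold (log2 change 0.38 ± 0.10 SE, adjusted p = 0.0397). Its 2 further bright probe sets rose by more, with log2 changes of 0.59 and 0.60 and unadjusted p of 0.00717 and 0.00425 in the fit over all probe sets. The call of CDK1 on the brightest probe set was lost in each fit without 1 array (adjusted p up to 0.289). CCNB1, cyclin B1, the partner of CDK1, was the member with the lowest change: it read 540 and 528 against 424 and 483 (log2 change -0.23, interval -0.45 to -0.01, adjusted p = 0.146). The second probe set of CCNB1 did not show this, at 236 and 219 against 241 and 237 (log2 change 0.07). CCNB2 read 407 and 359 against 439 and 463 (log2 change 0.23, adjusted p = 0.149), and CCNA2, cyclin A2, of S phase and G2, 156 and 149.99 against 164 and 144 (log2 change 0.0042, interval -0.21 to 0.22). FOXM1, the transcription factor that drives many of these genes in G2, read 34.6 and 26.5 against 37.2 and 41.0 (log2 change 0.25, adjusted p = 0.166).

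Several probe sets served as a check of single members. In all 111 probe sets named one of the 53 genes, and 22 tested members had more than 1 above the brightness minimum. Of their 32 further probe sets, 25 had the sign of the brightest, 11 of these at an unadjusted p under 0.05, and none of the 7 of opposite sign reached that p. The 7 such members that rose (ASPM, AURKA, CDK1, CENPF, HMMR, KIF14 and KIF2C) had 8 further probe sets, all higher at an unadjusted p under 0.05. Probe sets of one gene are read from the same RNA and do not replicate the comparison. The size of the change differed most in ASPM (log2 changes of 0.86 and 0.24) and CENPF (0.81 and 0.23), whose further probe sets were dim. The sign differed in BIRC5, CCNA2, CCNB1, CENPN, MAD2L1, NUSAP1 and SGO2, none of which passed the test. Of these SGO2 had 0.44 and -0.10, CENPN 0.05 and -0.28, and BIRC5 0.17, 0.19, 0.11 and -0.20 on its 4 probe sets above the minimum.

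**Figure D4:**
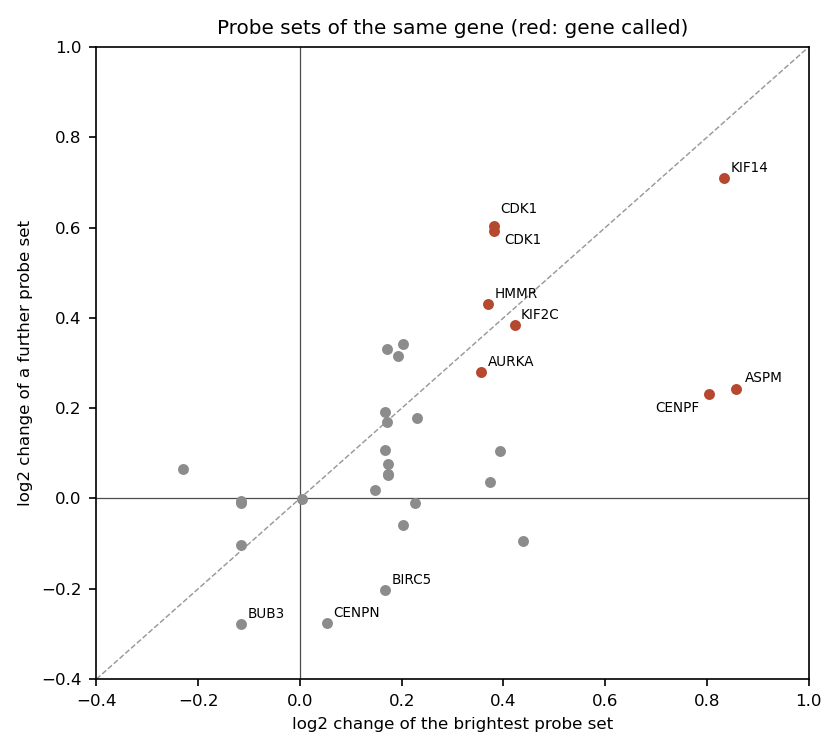
Log2 change of each of the 32 further probe sets above the brightness minimum against that of the brightest probe set of the same gene; red marks genes that passed the test and the dashed line equal changes. All 8 red points lie above 0, ASPM and CENPF far below the line, and BIRC5 and CENPN change sign.

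Other genes of mitosis and regulators of the cell cycle, on lists that share no gene with the 53, moved less. Of 127 tested on 7 lists, 11 rose and 5 fell, at a median log2 change of 0.07. Of all tested genes 9.38% rose and 6.59% fell. The 127 include 16 regulators that act through the CHR and E2F sites, described below. Of 26 other kinetochore genes, 3 rose and 1 fell. MIS12, the namesake of the complex that joins inner and outer kinetochore, read 168 and 169 in the control and 368 and 328 on the knockdown-labelled arrays, a rise of 1.97-fold (log2 change 0.98 ± 0.09 SE, adjusted p = 0.000649), while NSL1, a subunit of the same complex, fell 1.39-fold (adjusted p = 0.0116). With s_at and x_at probe sets left out NSL1 had a log2 change of 0.00080, and its call was also lost with the mean of its probe sets (adjusted p = 0.0995) and without either knockdown-labelled array (up to 0.121). OIP5 and MIS18A, subunits of the complex that licenses new CENPA at the centromere, rose 1.40-fold (adjusted p = 0.0133) and 1.33-fold (0.0245), with the calls of both lost without either knockdown-labelled array (up to 0.122 and 0.204) and that of MIS18A also without control array 1.

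A list of the anaphase-promoting complex with its activator FZR1, its ubiquitin-conjugating enzymes UBE2C and UBE2S and its inhibitor FBXO5 held 17 tested genes. Of these 2 rose, where 9.38% of all tested genes did, and none fell, at a median log2 change of -0.06. UBE2C, which starts ubiquitin chains on substrates of the complex, read 363 and 381 in the control and 586 and 598 on the knockdown-labelled arrays, a rise of 1.57-fold (adjusted p = 0.0029). ANAPC10, a subunit that helps to bind substrates and the only subunit called, rose 1.38-fold (adjusted p = 0.0478), a call lost without control array 1 or either knockdown-labelled array (up to 0.285). Of 19 cohesin and condensin genes, STAG2 (1.35-fold) and CDCA5 (1.24-fold) rose and SMC1A (1.40-fold) fell, with adjusted p of 0.0131, 0.0457 and 0.0289. Of 17 kinases and phosphatases of mitotic entry, the single call was WEE1, which inhibits CDK1: it read 368 and 346 against 244 and 238, a fall of 1.45-fold (adjusted p = 0.00678). Among 24 other spindle and centrosome genes CKAP2L rose 1.26-fold and NUMA1 fell 1.27-fold (adjusted p = 0.0343 and 0.0346), and among 8 cytokinesis genes CEP55 rose 1.32-fold and SEPTIN7 fell 1.27-fold (0.0231 and 0.0313). WEE1, STAG2, CEP55, CKAP2L, NUMA1, SEPTIN7, SMC1A and CDCA5 each lost their call without at least 1 array (adjusted p up to 0.266).

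Of 16 tested regulators that act through the CHR and E2F sites, already counted among the 127, 2 rose and none fell. Their median log2 change was -0.03, and of all tested genes 9.38% rose and 6.59% fell. E2F5, a repressive E2F of the DREAM complex, read 22.7 and 24.1 in the control and 40.7 and 46.6 on the knockdown-labelled arrays, a rise of 1.51-fold (adjusted p = 0.00576), lost without array 2 of the latter (0.0675). E2F7, an atypical repressor, rose 1.33-fold (adjusted p = 0.028), a call lost in 3 of the 4 fits that left out an array (up to 0.23). DNA replication genes, the list closest to the mitotic genes in the cell cycle, had the opposite balance. Of 48 tested, 19 fell (39.6%, against 6.59% of all tested genes) and 3 rose, at a median log2 change of -0.28. UHRF1, which maintains DNA methylation at the fork, read 195 and 189 against 88.0 and 83.8, a fall of 2.04-fold (adjusted p = 0.000332). MCM6, a helicase subunit, read 393 and 517 against 142 and 163 (2.78-fold), PCNA, the polymerase clamp, 819 and 785 against 426 and 437 (1.83-fold), and MCM2, a further helicase subunit, 252 and 263 against 142 and 141 (1.73-fold). The 3 that rose were CDC6 (1.56-fold), RRM2 (1.41-fold) and RFC1 (1.37-fold), at adjusted p of 0.0135, 0.00826 and 0.0265 by limma. Without knockdown-labelled array 1 or array 2, fewer replication genes fell and none rose, and fewer of all tested genes were called as well. The median log2 change of the replication genes was -0.24 and -0.25 in these fits.

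**Figure D5:**
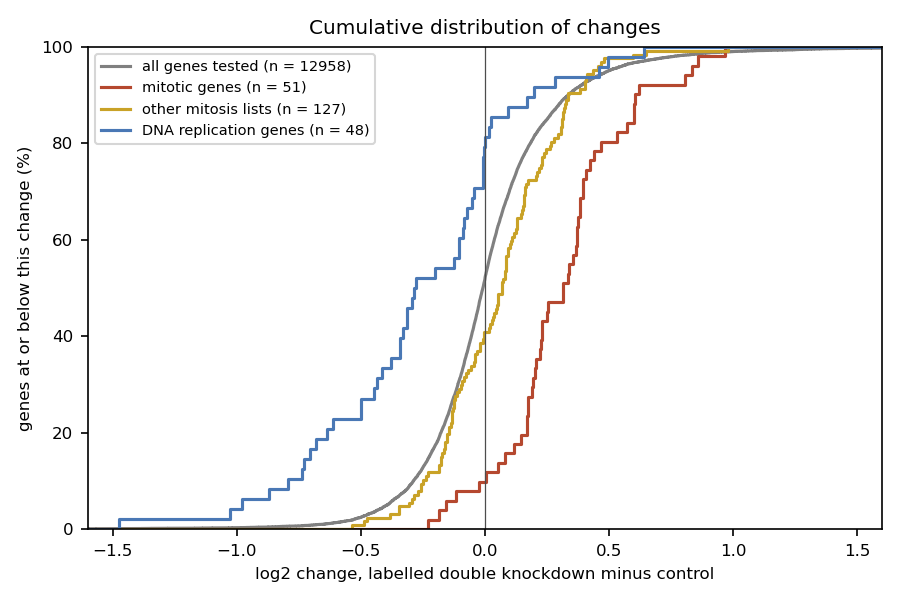
Cumulative share of genes, in percent, by log2 change between knockdown-labelled and control arrays, for all 12958 tested genes, the 51 mitotic genes, 127 genes of other mitosis lists and 48 DNA replication genes (changes beyond the axis are counted at its ends). The 127 include 16 regulators that act through the CHR and E2F sites. The medians are -0.01, 0.32, 0.07 and -0.28, so at the midpoint the curve of the mitotic genes lies to the right of all genes and that of the replication genes to the left.

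Each count of calls depended on the arrays. Without knockdown-labelled array 1, 5 of the mitotic genes rose, and without array 2, 7 did, all of them among the 21, while 3.72% and 2.89% of all tested genes rose in these fits. Without control array 1 fewer than the 21 rose, and without control array 2 some of the 21 lost their call while other members gained one. In each of these 4 fits all 21 had a change above 0, and the median log2 change of the members lay between 0.26 and 0.32. CENPE, CENPF, ASPM and KIF14 were called in all 4. Other ways of processing the values moved the smaller rises across the threshold. A constant of 1 lost the calls of BUB1B, CDCA8, AURKA, HMMR, CDC20 and CDK1, a constant of 64 those of AURKB and CDCA8, quantile normalization those of CDCA8, AURKA and CDK1, and testing all genes without a brightness filter those of BUB1B, AURKB, CDCA8, AURKA, DLGAP5 and CDK1. CDCA8 was also lost with cyclic loess, and it and AURKA with a prior that follows intensity. In the other direction PTTG1, SGO2 and TOP2A were called under 7, 5 and 4 of the alternatives.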

How the data were processed

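The 4 arrays were grouped and numbered by their sample titles. The values are linear probe set intensities as deposited by the authors, 1 per probe set and array, with a unit judged from their range. Their summarisation and normalization are not given in the sources used here, and scanner values were not analysed here.

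There were 54675 probe sets: 62 controls, 41091 that name 1 gene in the platform annotation, 1801 that name several and 11721 that name none. Symbols were updated by gene identifier through the RefSeq gene table of GRCh38.p14. Values were taken as log2(intensity + 16). A fold is therefore a ratio of intensity + 16, which is closer to 1 for dim genes than the plain ratio. Each gene was represented by the probe set with the highest mean, and a gene was tested if that mean was at least the median over probe sets, which equals 14.6 in intensity. Of 19775 genes with a probe set of their own, 12958 were tested, by lmFit and eBayes of limma (version 3.58.1, under R 4.3.3) with a constant prior, two-sided, on all 4 arrays and with no covariate, Benjamini-Hochberg adjustment over all genes tested, and a threshold of 0.05. Every adjusted p comes from limma and every standard error is its moderated one, and unadjusted p of further probe sets come from the same test over all probe sets. The number of arrays, 2 a group, limits the precision. The fit was also run on simulated data with 2 arrays a group, in which 200 of 12958 genes were given a change. Noise was independent and normal, with variances drawn from the fitted prior of limma. The fit called 31.3% of genes simulated with a log2 change of 0.5 and 100% of those with 1. False calls made up 4.35% of calls, a share that this choice of noise largely fixed beforehand. In the data 2070 genes were called, which loosens the adjusted threshold, so these shares do not measure the power of this comparison.

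The members, the gene lists and the tests were chosen with earlier results of these data known. All members are named. Of each other pathway list, every called gene is named where 5 or fewer were called, and otherwise the 4 with the smallest p. The 3 DNA replication genes that rose are named as well. Alternatives were another constant, scaling, choice of probe set, brightness filter and variance prior, a replicate block, and leaving out each array.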

Additional observations from a re-analysis of the deposited data

How the results depend on the processing

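With 2 arrays a group, a fit without 1 array leaves the lone array of its group assumed to vary like the other group, and these fits moved the counts most. Leaving out 1 array gave 529 to 1985 genes called in all (374 to 1117 higher, 155 to 868 lower), 5 to 22 members called, all higher, with a member median of 0.26 to 0.32, and 9 to 18 DNA replication genes called (0 to 4 higher, 9 to 16 lower) with a median of -0.31 to -0.22. Over the other alternatives 15 to 25 members rose and none fell, while 4.7% to 13.7% of all tested genes rose. The member median was 0.22 with a constant of 64 and 0.25 when each gene's probe sets were averaged, and under every scaling it stayed between 0.30 and 0.32, while the median of all genes moved by less than 0.1. The DNA replication median was -0.16 with a constant of 64, -0.21 with the mean of probe sets, -0.12 with s_at and x_at probe sets left out and -0.34 with the stricter brightness filter. With s_at and x_at probe sets left out, 13 replication genes were called, 12 lower and 1 higher, and without a brightness filter 1 rose. The causes were not tested.

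The sign of some values changed. Quantile normalization gave CCNA2 a log2 change of -0.018, and leaving out 1 array gave it -0.078 to 0.087. CENPN had -0.11 with averaged probe sets, -0.28 with s_at and x_at probe sets left out, and -0.0095 to 0.12 with 1 array left out. Over those fits INCENP ranged from -0.13 to 0.082 and SPC25 from -0.0024 to 0.23. With s_at and x_at probe sets left out, BIRC5 had -0.20, CCNB1 0.066, NSL1 0.00080 and SEPTIN7 0.052. Of these genes NSL1 and SEPTIN7 had been called.

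The labels number the arrays of both groups 1 and 2 without saying that a number marks a shared culture or day. Differences between arrays 1 and 2 correlated across genes at r = 0.244 between the groups. With the replicate block 2520 genes were called, 1434 higher and 1086 lower, among them 25 members, all higher, and 24 replication genes, 21 lower and 3 higher.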
